A study of Mus musculus with 6 samples.

Results

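The small leucine-rich proteoglycans are secreted matrix proteins built from leucine-rich repeats, most of which carry sulfated sugar chains. The 10 genes described here are Dcn, Lum, Bgn, Ogn, Fmod, Omd, Aspn, Prelp, Podn and Ecm2. They were chosen by name as members of this family, with earlier results of these data known. Each was found as 1 row among the 54752 genes of every table. They were followed in 3T3-L1, an established mouse line of embryonic fibroblasts able to differentiate into adipocytes, in 3 libraries labelled as preadipocytes and 3 labelled as adipocytes. The labels give every sample the strain C57BL/6J, embryo as tissue, no treatment and the same medium text, which lists 10% BCS, 10% FBS and an abbreviation, DMI, that is not spelled out. What each group received and the day of harvest are therefore not known from the labels, and since the source name calls every sample an adipocyte, the groups rest on titles and cell type labels. As an established line, all libraries share 1 origin, and nothing says that the replicates were separate cultures. The p-values are therefore set against the spread of these libraries only, and that spread may be technical.

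These proteins bind along collagen fibrils with their curved repeat domain and limit or direct how fibrils thicken and pack. Several also bind growth factors of the TGF-beta and BMP families, receptor tyrosine kinases or Toll-like receptors. The family is sorted into classes by sequence: class I (Dcn, Bgn, Aspn and Ecm2 here) typically carries chondroitin or dermatan sulfate, and class II (Fmod, Lum, Prelp and Omd) keratan sulfate or tyrosine sulfate. Ogn belongs to class III and Podn to class V. Fibroblasts are a main source of the family in connective tissue, and Dcn is widely used as a fibroblast marker.

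Of the 10 genes, 9 fell in adipocytes and 1, Prelp, rose (edgeR quasi-likelihood test, adjusted p under 0.05 over 14726 genes tested), in a comparison where 73.5% of all genes tested passed in either direction. For all 9 the preadipocyte and adipocyte libraries did not overlap, and Prelp did not overlap in the other direction. The median log2 fold change of the 10 was -2.82, against -0.06 over all genes tested. The background is broad: 37.9% of all genes tested were called lower and 35.7% higher, and in 39.7% every adipocyte library lay below every preadipocyte library. A fall on its own is therefore common in this comparison. Falls of at least 4-fold that passed the test were found in 11.2% of genes, and Dcn, Bgn, Ogn and Aspn were among them, as were Fmod and Omd. Bgn lay near this limit, at a log2 fold change of -2.10, and fell short of it without adipocyte library 3 (-1.98). All 10 passed the filter on low counts, but Fmod and Omd passed only through the preadipocyte libraries, where they are high: 1 adipocyte library reached the minimum for Fmod and 0 for Omd. Genes that pass in this way had to differ, so their falls add nothing to these counts. The median of -2.82 includes both and is lower for it. In these bulk libraries, fewer cells that express a gene and less RNA per cell cannot be told apart.

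**Figure D1:**
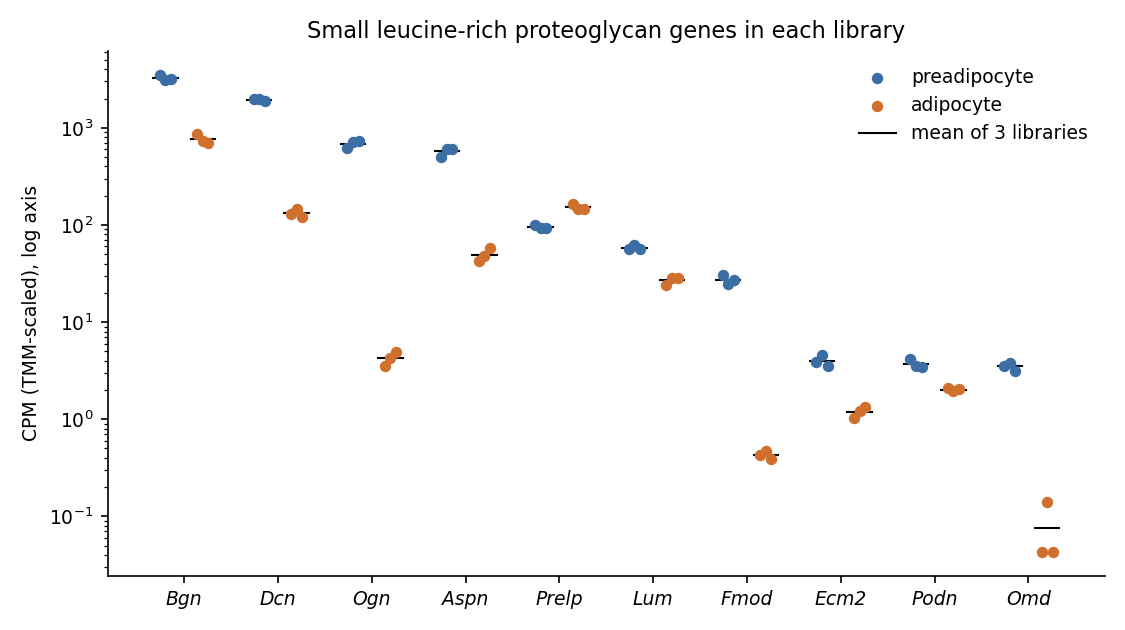
Normalised read counts (CPM, counts scaled to library size with TMM factors, log axis) of the 10 genes in each of the 3 preadipocyte and 3 adipocyte libraries, with the mean of each group as a short line. For 9 genes the adipocyte points lie below the preadipocyte points, with the widest gap for Ogn (685 against 4.23 CPM), and for Prelp they lie above.

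Promoters are shown for 4 members that form contrasting pairs of neighbours. Fmod and Prelp lie on chromosome 1 and changed in opposite directions. Ogn and Aspn lie on chromosome 13, had preadipocyte ranges that overlapped in TPM but not in CPM, and fell to different extents. Each run is the 250 bases before the RefSeq start (build GRCm38.p6), 5′ to 3′ on the gene's strand, and capitals mark matches to a searched motif on either strand.
Ogn (chr13:49607765-49608014, plus strand): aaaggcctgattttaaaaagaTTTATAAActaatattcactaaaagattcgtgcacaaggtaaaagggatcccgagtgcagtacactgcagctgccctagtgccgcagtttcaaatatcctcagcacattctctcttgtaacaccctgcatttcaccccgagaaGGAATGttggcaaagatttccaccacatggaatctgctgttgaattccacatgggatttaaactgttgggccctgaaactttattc
Aspn (chr13:49544193-49544442, plus strand): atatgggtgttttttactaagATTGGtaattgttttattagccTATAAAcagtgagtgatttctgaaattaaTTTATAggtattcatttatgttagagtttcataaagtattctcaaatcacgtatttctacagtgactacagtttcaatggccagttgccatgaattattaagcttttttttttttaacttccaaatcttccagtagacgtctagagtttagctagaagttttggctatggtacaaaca
Fmod (chr1:134037004-134037253, plus strand): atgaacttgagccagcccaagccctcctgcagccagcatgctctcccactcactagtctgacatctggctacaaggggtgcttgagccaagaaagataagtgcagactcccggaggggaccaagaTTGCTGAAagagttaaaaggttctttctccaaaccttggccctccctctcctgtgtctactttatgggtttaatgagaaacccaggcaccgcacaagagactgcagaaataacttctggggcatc
Prelp (chr1:133921402-133921651, minus strand): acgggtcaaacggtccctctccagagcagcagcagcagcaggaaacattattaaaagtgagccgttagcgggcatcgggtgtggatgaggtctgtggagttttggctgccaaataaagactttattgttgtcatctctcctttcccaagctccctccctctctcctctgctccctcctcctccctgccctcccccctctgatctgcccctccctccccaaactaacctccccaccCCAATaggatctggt
The RefSeq table held 8 of the 10 genes. The motifs searched were TATAAA, present in 12.4% of all 32851 promoter windows of this length, CCAAT in 33.8%, GGGCGG (the GC box) in 32.7%, GGAATG (the core bound by TEAD factors) in 12.6%, TGANTCA (AP-1) in 6.75%, AGGTCA (a nuclear receptor half-site) in 14.0% and TTGCNNAA (similar to C/EBP sites) in 9.56%. TATAAA occurred in the windows of Ogn and Aspn, far upstream of the start at 227 and 207 bases before it, and each window also held its reverse complement TTTATA, which in Ogn overlaps the first match. Ogn alone of the 8 held GGAATG, 86 bases before the start. Fmod alone held TTGCNNAA, 125 bases before the start. Prelp held CCAAT 15 bases before the start, and Aspn held it at 229. The GC box was found in Bgn, Ecm2 and Podn, the half-site in Omd and Podn, and TGANTCA in 0 of the 8. GC content was 30.0% for Aspn, 42.0% for Ogn, 51.2% for Fmod and 55.6% for Prelp, beside a median of 52.4% over all windows. These are matches of letters in a short window, not measured sites.

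Among class I genes, all 4 fell, with log2 fold changes from -3.88 to -1.74. Dcn (ENSMUSG00000019929.16, GRCm38 chromosome 10, 97479609 to 97518143) encodes decorin, which binds type I collagen and TGF-beta. It stood at 1970, 2000 and 1878 CPM in preadipocyte libraries 1, 2 and 3 and at 130, 145 and 122 CPM in the adipocyte libraries. Every adipocyte library was thus far under every preadipocyte library, and the log2 fold change was -3.88 (SE 0.0952, adjusted p = 4.12e-09). Bgn (ENSMUSG00000031375.17, chromosome X, 73483602 to 73495933) encodes biglycan, the closest relative of decorin and a ligand of Toll-like receptors when released from the matrix. It stood at 3526, 3127 and 3191 CPM in preadipocytes and at 866, 730 and 694 CPM in adipocytes. Its fall was smaller than that of Dcn, at -2.10 (SE 0.104, adjusted p = 1.87e-07), and it remained the most abundant member in both states.

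Aspn (ENSMUSG00000021388.14, chromosome 13, 49544443 to 49567565) encodes asporin, which binds collagen and TGF-beta and lacks the usual sugar chain. It was at 500, 607 and 606 CPM in preadipocytes and at 42.4, 47.8 and 57.6 CPM in adipocytes. The groups were separate, with a log2 fold change of -3.53 (SE 0.140, adjusted p = 4.78e-08). Ecm2 (ENSMUSG00000043631.8, chromosome 13, 49504810 to 49532789), an extracellular matrix protein with a decorin-like repeat domain, was scarce in both states. It measured 3.91, 4.58 and 3.52 CPM against 1.04, 1.21 and 1.34 CPM, where the adipocyte values rest on 81.02 counts in all (exact 95% Poisson interval 64.3 to 101, for counting error only). The fall was -1.74 on the log2 scale (SE 0.188, adjusted p = 3.30e-05).

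The class II genes spread most widely, from -5.98 to 0.68 on the log2 scale. Fmod (ENSMUSG00000041559.7, chromosome 1, 134037254 to 134048277) encodes fibromodulin, a regulator of collagen fibril maturation in tendon. It stood at 30.2, 24.5 and 27.3 CPM in preadipocytes and at 0.432, 0.467 and 0.389 CPM in adipocytes, where it was close to the limit of detection at 29 counts over 3 libraries (interval 19.4 to 41.6). Its log2 fold change was -5.98 (SE 0.163, adjusted p = 6.50e-09). Omd (ENSMUSG00000048368.9, chromosome 13, 49582462 to 49592822), osteomodulin of mineralised tissue, was a low gene already in preadipocytes at 3.52, 3.83 and 3.12 CPM. It was at 0.0432, 0.140 and 0.0433 CPM in adipocytes, or 5.34 expected counts in all (interval 1.62 to 11.7 for 5 counts). The fitted log2 fold change of -5.46 (SE 0.338, adjusted p = 7.91e-07) therefore has a loosely known size.

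Lum (ENSMUSG00000036446.5, chromosome 10, 97565128 to 97572703) encodes lumican, which orders collagen fibrils in cornea and skin. It was at 56.0, 62.1 and 56.0 CPM in preadipocytes and at 24.1, 28.1 and 28.5 CPM in adipocytes, a log2 fold change of -1.11 (SE 0.0932, adjusted p = 6.06e-06). The groups did not overlap, yet this was a mild fall for the family. Prelp (ENSMUSG00000041577.5, chromosome 1, 133910304 to 133921414, minus strand) encodes an arginine- and proline-rich protein that binds both collagen and the basement membrane proteoglycan perlecan. It measured 99.4, 93.2 and 93.0 CPM in preadipocytes and 165, 146 and 147 CPM in adipocytes. It rose by 0.68 (SE 0.0774, adjusted p = 4.51e-05), and the call was lost in limma on log2(TPM + 1), at 0.14 with adjusted p = 0.147. Its TPM values were 51.01, 54.01 and 54.14 in preadipocytes and 64.74, 55.52 and 55.83 in adipocytes, so the groups were still separate on that scale but by a narrow margin. Of its exon bases, 9.68% lie under the antisense gene Gm15851, which had 2.01 counts over the preadipocyte libraries and 0 over the adipocyte libraries.

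Ogn (ENSMUSG00000021390.6, chromosome 13, 49608046 to 49624501) encodes osteoglycin, also called mimecan, a class III member that takes part in fibril assembly. It showed the largest fall of the 10, from 612, 712 and 731 CPM in preadipocytes to 3.55, 4.25 and 4.89 CPM in adipocytes. The log2 fold change was -7.34 (SE 0.150, adjusted p = 2.34e-09), which placed Ogn 28 from the lowest among the 14726 genes tested. In the same ranking Dcn was 471. Fmod was 72 and Omd 113, but both passed the filter only through the preadipocyte libraries. Their ranks rest on few adipocyte counts. Podn (ENSMUSG00000028600.15, chromosome 4, 108014791 to 108096445, minus strand) encodes podocan, a class V member studied in smooth muscle. It was scarce, at 4.15, 3.52 and 3.48 CPM against 2.08, 1.96 and 2.03 CPM, and fell by 0.87 on the log2 scale (SE 0.155, adjusted p = 7.97e-04). The deposited effective length of Podn ran from 1240.12 in adipocyte library 1 to 2568.67 in preadipocyte library 3, a 2.07-fold range. With that length as an offset the log2 fold change was -0.44 and the call was lost (adjusted p = 0.147). One annotated Podn transcript also reaches into the Scp2 locus on the same strand, without sharing exon bases, and Scp2 rose by 2.99 (SE 0.0826, adjusted p = 7.01e-09).

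**Figure D2:**
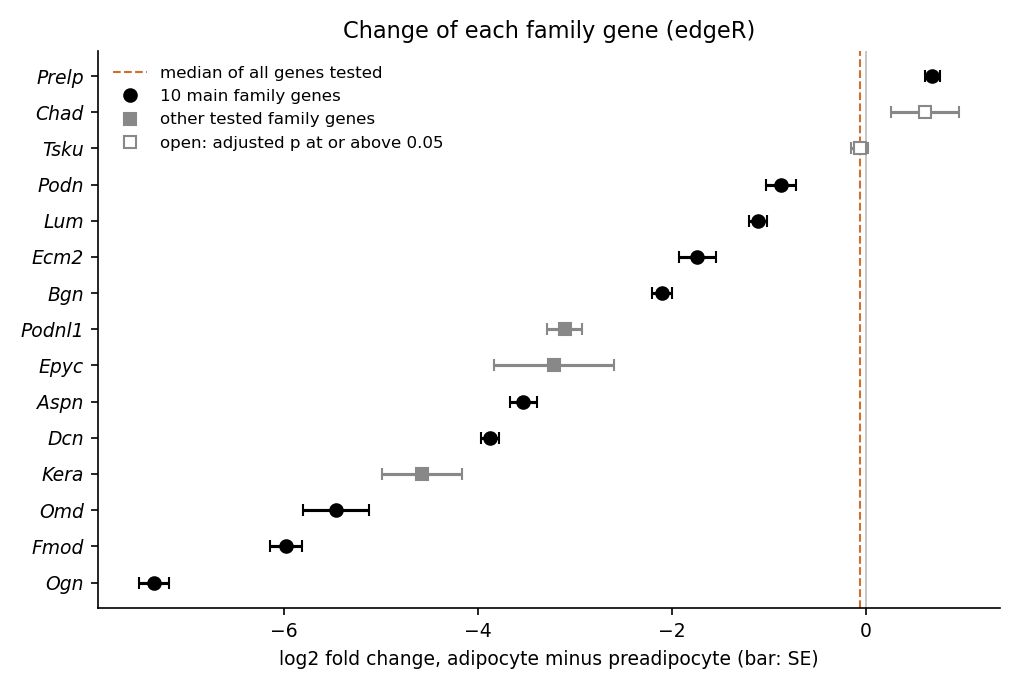
Fitted log2 fold change (adipocyte minus preadipocyte) with its SE for the 10 genes and for the other 5 tested family genes, with the median of all genes tested as a dashed line. Ogn, Fmod and Omd lie lowest, Prelp is the only filled point above 0, and the open points of Chad and Tsku did not pass the test.

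Compared per length, in TPM, the 10 genes together summed to 6092 ± 127 (SD, n = 3) in preadipocytes and to 649.5 ± 38.3 (SD, n = 3) in adipocytes. The lowest preadipocyte sum was 5950.8 and the highest adipocyte sum 691.9, and the group means stood in a ratio of 9.38. On CPM per kilobase of effective length, which uses the TMM factors, the sums were 3323 and 509.8 and the ratio was 6.52. The choice of scale thus moved the size of the joint change but left the groups far apart. As a share of all counts, the members took 0.747% ± 0.0046 (SD, n = 3) in preadipocytes and 0.101% ± 0.0068 (SD, n = 3) in adipocytes.

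The make-up of this pool differed between the states. Bgn held 44.4% ± 2.46 (SD, n = 3) of the summed TPM in preadipocytes and 67.0% ± 2.47 in adipocytes. Dcn held 36.8% ± 1.04 and 16.4% ± 1.79. The remainder of the preadipocyte pool was mainly Ogn, at 8.61% ± 0.960, and Aspn, at 8.04% ± 1.01. In adipocytes Ogn held 0.351% ± 0.0833 and Aspn 4.57% ± 1.07. Prelp went from 0.871% ± 0.0131 to 9.03% ± 0.334 of the pool, and Lum from 0.767% ± 0.0517 to 2.34% ± 0.387. A larger share here goes with a fall of the other members: the TPM of Prelp itself was 53.1 ± 1.77 and 58.7 ± 5.24 (SD, n = 3).

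**Figure D3:**
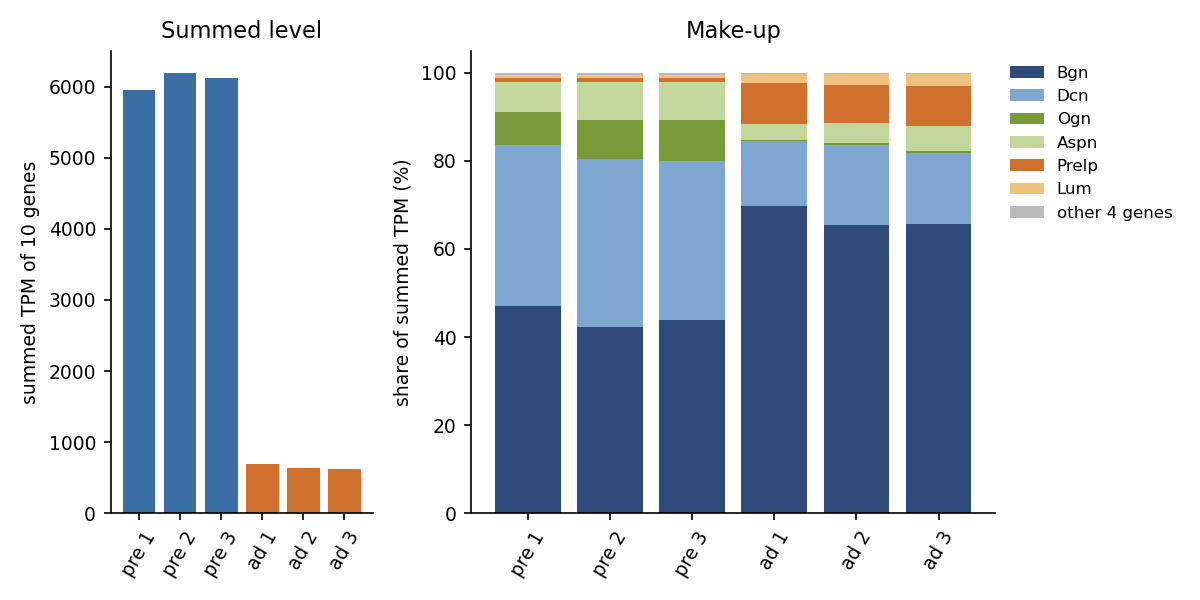
Summed TPM of the 10 genes in each preadipocyte (pre) and adipocyte (ad) library (left) and the share of that sum held by each gene in percent (right). The preadipocyte libraries sum to 5950.8 to 6196.4 TPM and the adipocyte libraries to 617.5 to 691.9 TPM, with Bgn the largest part in every library and Prelp a wider band in the adipocyte than in the preadipocyte libraries.

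The order of the genes by TPM changed accordingly. In preadipocytes it ran Bgn, Dcn, Ogn, Aspn, Prelp, Lum, Fmod, Omd, Podn and Ecm2, in which Ogn and Aspn overlapped, as did Prelp and Lum. In adipocytes it ran Bgn, Dcn, Prelp, Aspn, Lum, Ogn, Podn, Ecm2, Fmod and Omd, in which only Ogn and Podn overlapped. Ogn moved from 525.4 ± 67.8 TPM, between Dcn and Prelp, to 2.26 ± 0.415 TPM (SD, n = 3), in the range of the scarce Podn at 1.51 ± 0.494. At the low end Fmod and Omd changed places with Podn and Ecm2: Fmod went from 17.0 ± 1.34 to 0.183 ± 0.0153 TPM and Ecm2 from 1.94 ± 0.298 to 0.403 ± 0.0404 TPM.

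Ratios between 2 genes of the same library do not depend on scaling between libraries, and 6 such ratios were computed for pairs chosen with their values known. Fmod had 0.287 ± 0.0213 counts for each Prelp count in preadipocytes and 0.00282 ± 0.000323 in adipocytes (SD, n = 3). This 102-fold difference between chromosome 1 neighbours rests on 29 Fmod counts in adipocytes, so its size is loosely known. Ogn had 1.20 ± 0.0259 counts for each Aspn count in preadipocytes and 0.0858 ± 0.00275 in adipocytes. That 14.0-fold difference arose between genes that ran nearly level before. Dcn to Lum went from 33.6 ± 1.48 to 4.96 ± 0.577, and Dcn to Bgn from 0.596 ± 0.0410 to 0.175 ± 0.0245. The other two ratios rose, Omd to Ogn by 3.10-fold, on the few Omd counts given above, and Ecm2 to Aspn by 3.48-fold. No ratio overlapped between the groups, and each had an exact two-sided permutation p of 0.1, raw and after adjustment over the 6. That is the smallest p that 3 against 3 libraries allow. Since the pairs were chosen with their values known, neither the separation nor this p tests a difference.

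The members outside Bgn and Podn sit in 3 clusters of family genes (GRCm38). On chromosome 13, Ecm2, Aspn, Omd and Ogn follow each other on the plus strand with gaps of 11.7, 14.9 and 15.2 kb. Their log2 fold changes in that order were -1.74, -3.53, -5.46 and -7.34, so the fitted fall was larger from each gene to the next. In limma on log2(TPM + 1) this order did not hold, since Omd stood at -2.36 and Aspn at -4.02. All 4 lie within Cenpp, a centromere protein gene on the opposite strand, which fell by 1.44 (adjusted p = 0.000407) and shares 7 exon bases with Aspn and 0 with the others. Next to the cluster, Tes3-ps stood at -0.05 (adjusted p = 0.912). Nol8 rose by 0.53 (adjusted p = 0.0083), a call lost when libraries were scaled by total counts (0.20, adjusted p = 0.239) and with limma on TPM.

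On chromosome 10, Dcn and Lum lie 47.0 kb apart, followed by the family members Kera, 34.2 kb on, and Epyc, another 30.4 kb on. Lum, with -1.11, lay between genes that fell further, Dcn at -3.88 and Kera at -4.58. The nearest protein-coding gene on the other side, Btg1, rose by 0.74 (adjusted p = 7.22e-05). It is no close neighbour, since it ends at 96622809 and Dcn starts at 97479609. On chromosome 1, Prelp and Fmod point away from each other across 116 kb and went in opposite directions. Optc, 2.3 kb from Prelp, had 25 counts in preadipocytes and 13 in adipocytes and was not tested. The gene beyond Fmod, Btg2, rose by 0.63 (adjusted p = 0.000172), which was lost with limma on TPM.

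**Figure D4:**
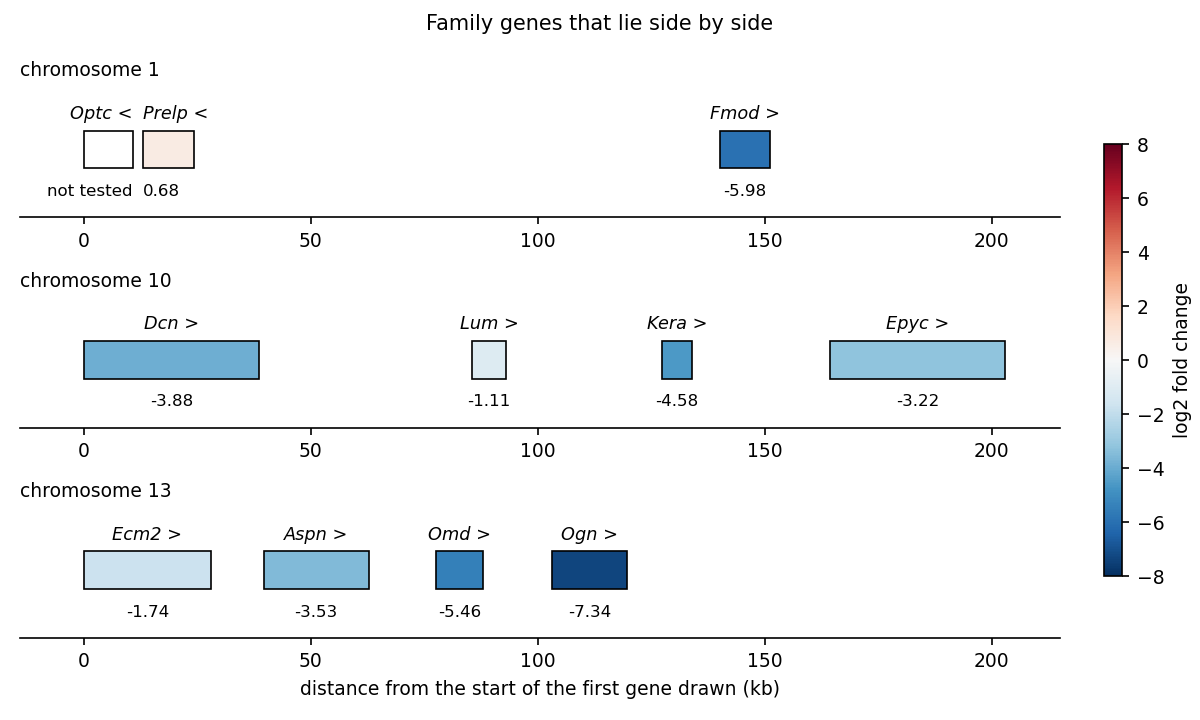
Family genes in the 3 clusters, drawn to scale as distance in kilobases from the first gene drawn, with arrowheads for strand and colour and number for the log2 fold change. Along chromosome 13 the values run from -1.74 for Ecm2 to -7.34 for Ogn, and on chromosome 1 Prelp at 0.68 and Fmod at -5.98 differ in sign.

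Beyond these 10, 8 further family genes were looked up, of which 5 were tested, 3 fell and 0 rose, beside 37.9% lower and 35.7% higher of all genes tested. Of the 3 that fell, Kera and Epyc passed the filter through the preadipocyte libraries alone and so had to differ. Kera, keratocan of the cornea, was at 2.31, 4.78 and 3.85 CPM in preadipocytes and at 0.173, 0.0934 and 0.173 CPM in adipocytes, which rest on 10 counts (-4.58, SE 0.412, adjusted p = 9.70e-06). Podnl1, the relative of podocan, was at 6.50, 5.37 and 5.41 CPM against 0.692, 0.654 and 0.649 CPM (-3.10, SE 0.178, adjusted p = 4.82e-07). Both were separate between groups. Epyc, epiphycan of cartilage, had 57.09 counts over the preadipocyte and 5 over the adipocyte libraries (-3.22, SE 0.619, adjusted p = 0.00132). Of its exon bases, 40.6% overlap Gm10754 on the other strand, so its counts are uncertain without a statement on strand.

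Tsku, tsukushi, a secreted member that binds BMP and Wnt pathway proteins, was at 41.3, 41.3 and 37.0 CPM in preadipocytes and at 40.3, 35.6 and 38.4 CPM in adipocytes, and these ranges overlapped. Its log2 fold change was -0.07 (SE 0.0852, adjusted p = 0.508), but with libraries scaled by total counts it was called lower (-0.39, adjusted p = 0.00199), and likewise with limma on TPM. Chad, chondroadherin, measured 0.61 (SE 0.348, adjusted p = 0.144) on 34 and 45 counts. Chadl had 24.66 and 13.41 counts and Nyx 16 and 20, and neither was tested.

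Lists of related genes are given next by their counts, beside the 37.9% lower and 35.7% higher of all genes tested. These lists too were chosen with earlier results of these data known. Some listed genes passed the filter through only the group where they are higher, among them Chst3, Chst15, Bmp4, Itga2, Mmp9 and Ncan. Such genes had to differ, so their calls add nothing to these counts, and the medians of the lists include them. The genes that build the chains were mixed. Of 26 genes for chain linkage and chondroitin or dermatan sulfate synthesis, 22 were tested, 9 fell and 6 rose, with a median of -0.05, close to that of all genes. With scaling by total counts 13 fell and 3 rose, and the calls of Xylt2, Fam20b and Chsy1, named after their values were seen, were among those lost. With limma on TPM, which also applies another filter, 14 fell and 0 rose. With the replicate number as a block 10 fell and 8 rose. Chst15, a sulfotransferase under the abundance limit for naming and named after its values were seen, was at 0.332 ± 0.160 and 3.07 ± 0.196 CPM (SD, n = 3) and rose by 3.19 (SE 0.286, adjusted p = 9.37e-06). With total counts it rose by 2.87 (adjusted p = 1.98e-05), and the limma filter left it out. Ugdh, which makes the UDP-glucuronate that the chains are built from, was the most abundant and fell from 165.7 ± 4.51 to 72.6 ± 2.82 CPM (SD, n = 3), a log2 fold change of -1.19 (SE 0.0693, adjusted p = 5.25e-07). Dsel, a dermatan sulfate epimerase-like enzyme, fell the most among those called, from 49.8 ± 7.24 to 5.32 ± 0.933 CPM (-3.23, SE 0.159, adjusted p = 1.82e-07). B3gat3, which adds the last sugar of the linkage, was at 31.8 ± 4.94 and 52.6 ± 9.36 CPM and rose by 0.72 (SE 0.150, adjusted p = 0.00200), a call lost with limma on TPM (0.19, adjusted p = 0.219). Of further genes named after their values were seen, the epimerase Dse fell by 1.48 (adjusted p = 6.86e-07) and the sulfotransferases Chst14 by 1.53 (adjusted p = 5.47e-07) and Ust by 1.70 (adjusted p = 1.49e-06), while the sulfotransferase Chst12 was not called (0.16, adjusted p = 0.173).

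Of 14 genes for keratan sulfate synthesis and tyrosine sulfation, the modifications of class II members, 11 were tested, 7 fell and 4 rose, with a median of -0.63. St3gal1, a sialyltransferase, was the most abundant and fell from 283.4 ± 4.78 to 93.4 ± 3.51 CPM (-1.60, SE 0.0708, adjusted p = 9.44e-08). The sulfotransferases Chst1 and Chst2 moved in opposite directions. Chst1 was at 1.10 ± 0.402 CPM in preadipocytes and 22.2 ± 2.46 CPM in adipocytes (SD, n = 3; 4.33, SE 0.212, adjusted p = 1.75e-07). Chst2 was at 70.1, 62.8 and 67.9 CPM in preadipocytes and 2.51, 1.87 and 1.60 CPM in adipocytes (-5.06, SE 0.145, adjusted p = 8.43e-09). Neither gene's groups overlapped. Of the tyrosine sulfotransferases, Tpst1 fell by 2.31 (SE 0.0908, adjusted p = 4.64e-08), and Tpst2 rose by 0.54 (SE 0.162, adjusted p = 0.0146), a rise lost with total counts (0.21, adjusted p = 0.239). These and Fut8 (0.91) and St3gal3 (1.85), the remaining genes that rose, were named after their values were seen.

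Of 13 collagen genes whose fibrils or filaments the family binds, 11 were tested, 9 fell and 1 rose, with a median of -1.72. Col1a2, the most abundant, had a log2 fold change of -3.66 (SE 0.104, adjusted p = 8.25e-09), which is near that of Dcn. Col12a1, a collagen of the fibril surface, fell from 787.9 ± 106 to 12.5 ± 0.597 CPM (-5.98, SE 0.134, adjusted p = 2.89e-09). Col5a3 was the riser, at 110, 97.1 and 93.4 CPM in preadipocytes and 316, 315 and 328 CPM in adipocytes (1.68, SE 0.0840, adjusted p = 2.00e-07).

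Of 22 receptor and growth factor genes known as partners, 18 were tested, 13 fell and 3 rose, with a median of -1.64. With limma on TPM 12 fell and 1 rose, and with the replicate block 13 fell and 4 rose. The integrin subunit Itgb1, the most abundant by TPM, fell from 682.5 ± 49.3 to 266.2 ± 28.0 CPM (-1.36, SE 0.101, adjusted p = 2.74e-06). Bmp4 had 45.01 counts in preadipocytes and 0 in adipocytes, at least 12.9-fold lower against a floor of 3 counts over the group. It passed the filter through the preadipocyte libraries alone and so had to differ. Met, a receptor tyrosine kinase that decorin binds, rose from 65.2, 74.4 and 75.6 CPM to 147, 176 and 187 CPM (1.24, SE 0.108, adjusted p = 7.53e-06). The other genes that rose, Tgfb1 (0.44, adjusted p = 0.000712) and Tlr4 (0.84, adjusted p = 0.000805), were named after their values were seen, and both calls were lost with limma on TPM (adjusted p = 0.332 and 0.175). Also named after their values were seen, Egfr, another receptor kinase that decorin is known to bind, fell by 2.04 (SE 0.0869, adjusted p = 7.63e-08), and Tlr2, a biglycan receptor like Tlr4, by 3.93 (SE 0.162, adjusted p = 6.16e-08).

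Proteases that process or cleave the family made the list with the lowest median, -3.46: of 18 genes 15 were tested, 13 fell and 1 rose. Mmp2 was at 3694 ± 301 CPM in preadipocytes and 290.7 ± 40.0 in adipocytes (-3.67, SE 0.125, adjusted p = 2.05e-08). Mmp9 stood at 47.4 ± 0.955 and 0.193 ± 0.0350 CPM (-7.91, SE 0.140, adjusted p = 1.44e-09), where the adipocyte value rests on 13 counts. Mmp9 passed the filter through the preadipocyte libraries alone and so had to differ. Bmp1, which trims the propeptide of biglycan and was named after its values were seen, fell by 2.86 (SE 0.126, adjusted p = 9.28e-08). Adamts9 rose by 0.65 (SE 0.0793, adjusted p = 7.26e-05), lost with limma on TPM (0.11, adjusted p = 0.273).

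Of 24 other proteoglycan genes, 16 were tested, 13 fell and 2 rose, with a median of -1.38, so falls were not confined to the leucine-rich family. With limma on TPM 13 fell and 0 rose. Versican, Vcan, the most abundant by TPM, fell from 1114 ± 170 to 218.9 ± 16.3 CPM (-2.35, SE 0.126, adjusted p = 3.06e-07). The glypican Gpc6 fell by 4.12 (SE 0.110, adjusted p = 6.01e-09). Perlecan, Hspg2, the partner of Prelp, fell by 0.94 (SE 0.0740, adjusted p = 3.84e-06). Hspg2, Ncan and Prg4 were named after their values were seen. Both Ncan and Prg4 rose: Ncan had 1 count in preadipocytes and 249 in adipocytes, a ratio of 289 (95% counting interval 51.8 to 11400), and Prg4 had 11.08 and 100.27 counts. Ncan passed the filter through the adipocyte libraries alone and so had to differ. Prg4, with 11.08 counts over all preadipocyte libraries, also owed its passing to the adipocyte libraries, where it is high. Neither rise therefore adds to the count of genes that rose.

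**Figure D5:**
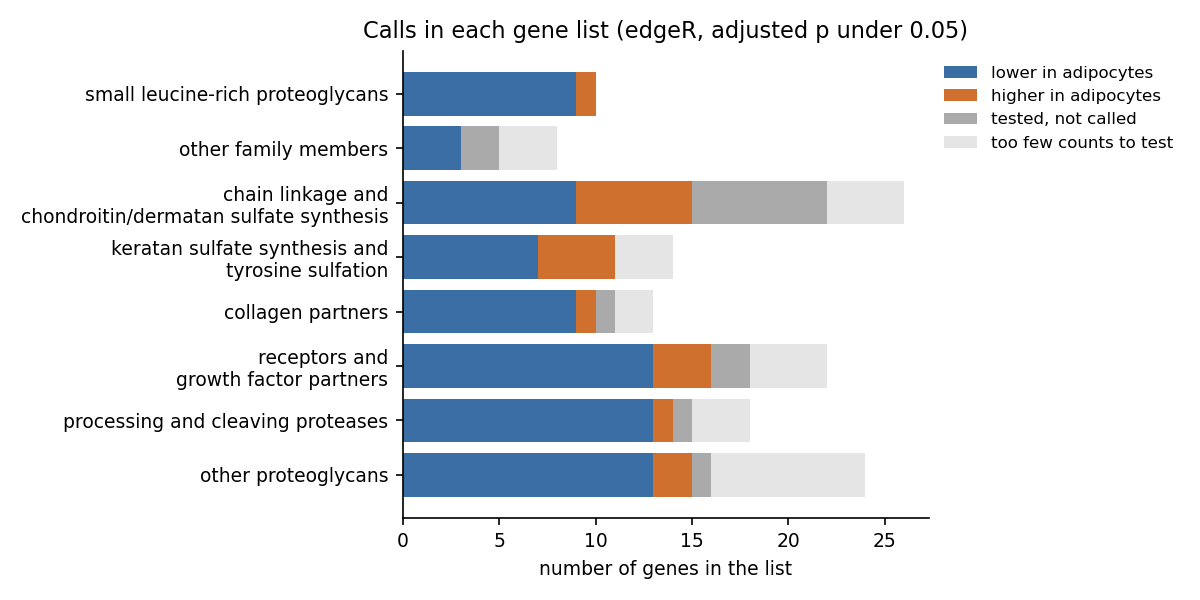
Number of genes called lower, called higher, tested but not called, or with too few counts to test, for the family and each list of related genes. The 10 main family genes show 9 lower and 1 higher, and chain synthesis genes show 9 lower and 6 higher.

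The labels were checked against marker genes and against depth. Total expected counts were 22496486 to 26314076 per library. Adipocyte markers were higher in 7 of 7 genes and preadipocyte markers lower in 6 of 6. Of all genes tested, 35.7% were called higher and 37.9% lower. Adipoq had 9 counts over the preadipocyte and 306707 over the adipocyte libraries. Adipoq, Plin1, Cfd and Lep passed the filter through the adipocyte libraries alone and so had to differ, and their calls add nothing to these counts. Ribosomal RNA genes took 0.731% of adipocyte library 2 and 0.0428% to 0.0706% of the others, and mitochondrial genes took 2.93% to 3.45% in preadipocytes and 7.19% to 7.77% in adipocytes. Leaving out adipocyte library 2, or any other library, left the calls of all 10 members in place.

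Several members are also known from bone, cartilage, tendon and smooth muscle. Markers of those tissues are given here beside the 37.9% lower and 35.7% higher of all genes tested. The 6 osteoblast markers summed to 375.1 to 378.6 TPM in preadipocytes and 6.88 to 7.75 TPM in adipocytes, with 3 of 4 tested lower and 1 higher; nearly all of it was Spp1 (335.4 and 4.76 TPM) and Runx2 (39.4 and 2.11 TPM), while Bglap and Ibsp stayed under 1 TPM in both group means. The 6 chondrocyte markers summed to 37.4 to 46.7 and 2.64 to 2.99 TPM, with 1 of 2 tested lower (Sox9), Matn1 and Col9a1 at 0 in all libraries and Col2a1 and Acan near 0. The 4 tendon markers summed to 22.6 to 27.3 and 5.22 to 7.47 TPM, with 2 of 3 tested lower and Thbs4 at 0. Most of this sum was Mkx (24.1 and 6.34 TPM). Tnmd, with 47 preadipocyte and 0 adipocyte counts, passed the filter through the preadipocyte libraries alone and so had to differ. The 6 smooth muscle and myofibroblast markers summed to 198.2 to 236.2 and 59.6 to 67.2 TPM. Of 5 tested, 3 were lower, led by Acta2 (-5.08, SE 0.179, adjusted p = 2.52e-08), and 2 were higher. Acta2 made up nearly all of the preadipocyte sum (mean 202.3 TPM) but little of the adipocyte sum (mean 4.15 TPM). The other markers of this list together were thus higher in adipocytes. The part of any such cells or cell state in the members' changes was not tested. Macrophage, endothelial and epithelial markers summed to at most 2.30, 1.24 and 1.23 TPM in any library, with Adgre1, Itgam and Cx3cr1 at 0.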

How the data were processed

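RNA of 3 preadipocyte and 3 adipocyte libraries was measured by sequencing. The submitters' processing notes name the tools Bowtie, Bowtie2, DESeq2 and RSEM and the builds GRCm38 and mm10. Their versions and roles, and the strandedness, were not given in the sources used here. Per the file headers, the authors deposited an expected count, a TPM value and an effective length for each gene and library. Expected counts share out reads that match several genes by a model, so paralogs, and overlapping or antisense genes, are uncertain. Of 54752 gene identifiers, 54723 matched GENCODE M21 (GRCm38) without version.

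Expected counts were rounded and tested with the quasi-likelihood F-test of edgeR 4.0.16 (R 4.3.3) after filterByExpr and TMM, on group alone, with p-values adjusted by Benjamini-Hochberg over 14726 genes at 0.05; adjusted p-values in the text come from this fit unless another is named. The preadipocyte TMM factors (1.11 to 1.13) exceeded the adipocyte ones (0.88 to 0.902). CPM uses the TMM-scaled library size. The limma 3.58.1 alternative used deposited TPM on log2(TPM + 1) or log2(TPM + 0.1) for genes with mean TPM of at least 0.5, and understates the change of low genes. DESeq2 1.42.0, other factors, filters, an effective length offset and leaving out each library were also run. The edgeR script was tested on simulated data.

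Deviations from group means correlated at 0.66, 0.30 and 0.26 between libraries of the same number, all above 0.1. Preadipocyte 2 and adipocyte 3, which differ in number, correlated at 0.45, higher than the 0.30 and 0.26. These correlations therefore do not settle whether the numbers pair the samples. The main fit left the number out, and 1 of the alternative fits included it. Even the most similar libraries differed beyond counting noise (chi-square over its degrees of freedom, 2.99).

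Members and lists were chosen with earlier results of these data known. Named genes were all members and tested relatives, the most abundant gene of each list, its largest called rise and fall with at least 1 TPM in the higher group, marker leaders, and genes overlapping, between or flanking members. The text marks other genes as named after their values were seen. Promoters are RefSeq (GRCm38.p6), with 250 bases before each start.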

Additional observations from a re-analysis of the deposited data

How the results depend on the processing

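Over 16 alternatives, Dcn (-4.40 to -3.77), Bgn (-2.64 to -1.98), Aspn (-4.06 to -3.42), Ecm2 (-2.06 to -1.06), Fmod (-6.30 to -3.93), Lum (-1.63 to -1.02), Omd (-6.14 to -2.36) and Ogn (-7.81 to -7.21) kept their direction and call. Prelp (0.14 to 0.77) lost its call with limma on log2(TPM + 1) and log2(TPM + 0.1), at 0.14 in each, so that members called higher numbered 0 there. Podn (-1.20 to -0.44) lost its call with the effective length offset, at -0.44, where members called lower numbered 8. In both limma fits fewer genes were called higher over all genes, 3149 and 3129 against 5252, with 28.4% and 28.3% of calls higher against 48.5%. Scaling by total counts gave 34.3%. Against the main scaling, these shifted the median gene by -0.49, -0.52 and -0.33, and the upper-quartile factors by -0.13. The summed level on CPM per kb, another unit, was 3323 and 509.8. With the replicate number as a block, 11975 genes were called against 10827, members were again 9 lower and 1 higher, and no member's call changed. Leaving out each library in turn gave 10145 to 11072 genes called, 4929 to 5466 higher and 5120 to 5606 lower, 9 members lower and 1 higher in each, and summed TPM of 6040 to 6163 and 628.3 to 665.5. Depth limits Omd, Fmod, Kera and Epyc in adipocytes, where few counts leave the size of the fall uncertain.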
